A study of Mus musculus with 6 samples.

Results

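Kruppel-like factors are transcription factors that share zinc fingers at their carboxy terminus and bind GC-rich and CACCC sequences in promoters and enhancers. The series measured 10 of their genes (Klf2, Klf3, Klf4, Klf5, Klf6, Klf7, Klf9, Klf10, Klf13 and Klf15) in mesenteric arteries, which carry blood to the gut. Every probe set that the array's annotation gives to 1 of these genes alone was taken, which made 34 of the 45037 probe sets deposited and 10 of 18193 genes. A probe set is a group of short probes that read 1 transcript.

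RNA came from 6 mice of a mixed background that includes FVB, SVJ129 and C57BL/6, with 1 Affymetrix array per mouse. The 3 control mice (animal numbers 30, 74 and 75) carried loxP-flanked beta1 integrin and were negative for Cre. The 3 knockout mice (72, 73 and 86) carried the same floxed alleles and sm22alphaCRE, a recombinase driven by the promoter of a gene of smooth muscle and therefore not meant to act in endothelium or leukocytes. Every mouse had 14 daily doses of 1 mg tamoxifen, begun at 5 weeks, and was sampled when 7 weeks old. Tamoxifen, a ligand of the oestrogen receptor, was thus common to both groups. In the labels the animal number is followed by F for knockout 86 and by M for all the others. The comparison asks how transcript levels in the artery wall differ between these groups. Only the knockout mice carried Cre, so its presence and the deletion of the integrin gene cannot be told apart.

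In vessels the family is known from several cell types. Klf2 and Klf4 are induced by laminar flow in endothelium through the kinases MEK5 and ERK5 and the factor MEF2, and Klf4 and Klf5 repress or reshape the contractile program of smooth muscle. Klf9 and Klf15 are induced by glucocorticoids and act on metabolism, while Klf6 and Klf10 respond early to injury and to TGF-beta.

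The arrays had median intensities between 62.8 and 72.6, and Pearson correlations across genes were 0.925 to 0.969 within groups and 0.877 to 0.940 between them. Values below are log2(intensity + 1) after quantile normalization, and differences are knockout minus control. The smooth muscle marker Acta2 was the brightest gene tested, at 14.05 in control and 14.02 in knockout arteries by a probe set at the top of the scale, while its other 2 probe sets differed by -0.56 and -0.87. By its brightest probe set, the targeted gene Itgb1 was lower in every knockout array than in any control array. The difference was -0.73 (SE 0.22, limma adjusted p = 0.127, exact permutation p = 0.1, the smallest that 3 arrays against 3 allow). Its other probe sets on brighter signals stood at -0.70 and -0.79, also without overlap. Its dim probe sets, below the filter described at the end, stood at -0.79, -0.81 and 0.04, and their groups overlapped. Whole vessels were measured, so fewer cells of a type and less RNA per cell cannot be told apart in any result here.

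Klf15 was the family member that fell. It is a regulator of glucose, lipid and amino acid metabolism that also occurs in smooth muscle. Of the 10 genes, 1 was past the threshold, an adjusted p under 0.05 over all 10654 genes tested, and it was lower in the knockout. Among all genes tested 2.42% passed in either direction, 1.76% as higher and 0.657% as lower. At an unadjusted p under 0.05 there were 3 members, all lower, against a background of 21.4% of genes (9.86% higher and 11.5% lower). The groups did not overlap in 2 members, Klf7 and Klf15, both lower, against 28.1% of genes (13.0% higher and 15.1% lower). By probe set, 1 of the 27 above the filter on dim signals passed, against 1.51% of all such probe sets, and 3 had no overlap, against 26.3%. The median difference was 0.03 over the 10 members and -0.05 over all genes, and the median size of a difference was 0.22 and 0.23.

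**Figure D1:**
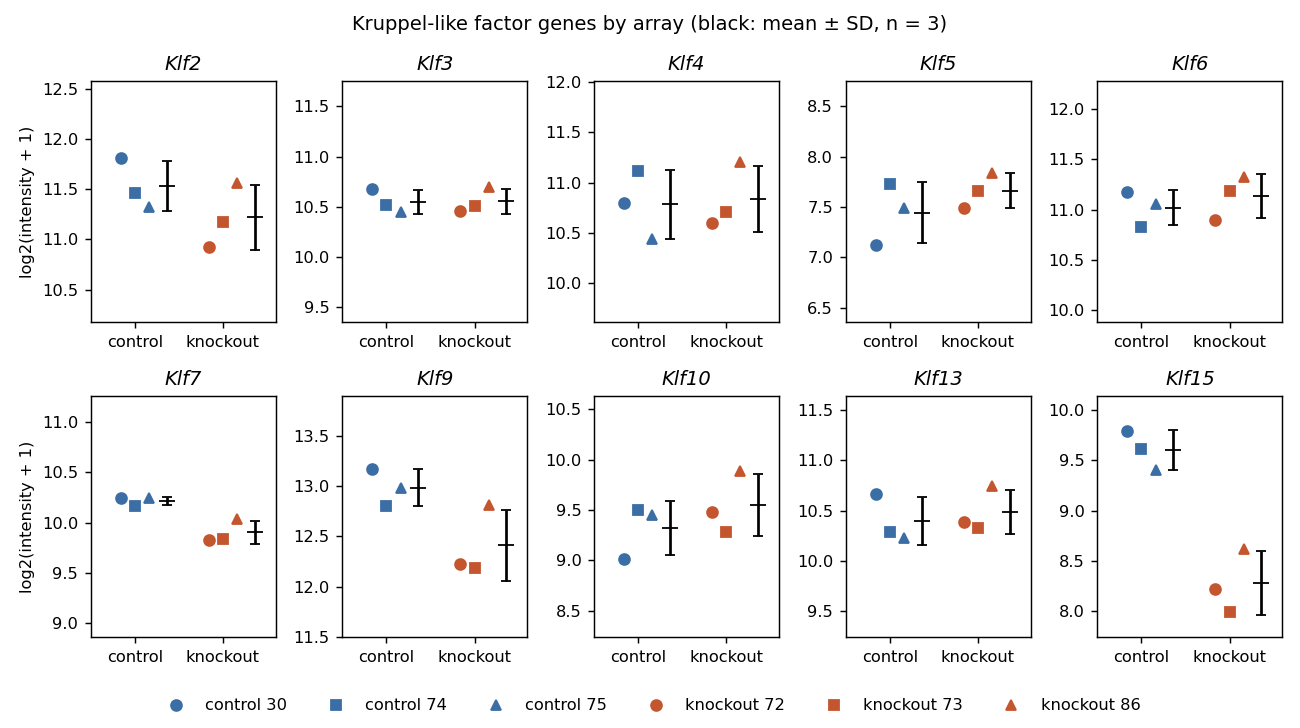
Level of each of the 10 genes on every array as log2(intensity + 1), with control arrays in blue, knockout arrays in orange, and the mean ± SD (n = 3) in black. Each panel spans the same range of log2 units around its own mean. Klf15 shows a gap between 9.40, its lowest control array, and 8.62, its highest knockout array.

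Klf15 stood at 9.79, 9.62 and 9.40 in controls 30, 74 and 75, and at 8.23, 7.99 and 8.62 in knockouts 72, 73 and 86. All 3 knockout arrays lay below all 3 control arrays. Control arteries averaged 9.60 ± 0.20 (SD, n = 3), and knockout arteries 8.28 ± 0.32 (SD, n = 3). The difference of -1.33 (SE 0.20, 95% interval -1.79 to -0.86) left 39.9% of the control level (limma adjusted p = 0.0248, unadjusted p = 0.000269). Klf15 ranked 115 of 10654 genes by p-value. Its call held without knockout 86 (-1.50, adjusted p = 0.0325) and was lost without control 30 (-1.23, adjusted p = 0.0637), control 74 (-1.32, adjusted p = 0.0532), control 75 (-1.43, adjusted p = 0.0721), knockout 72 (-1.30, adjusted p = 0.112) or knockout 73 (-1.18, adjusted p = 0.0631). With no filter on dim probe sets its adjusted p was 0.0584. A single probe set reads this gene, so no other probe set bears on the value.

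Klf9 is a smaller factor induced by glucocorticoids and thyroid hormone, and it gave the brightest signal of the 10 genes. It stood at 13.17, 12.80 and 12.98 in the controls and at 12.23, 12.19 and 12.81 in knockouts 72, 73 and 86. Knockouts 72 and 73 lay below all controls, while knockout 86 lay just above control 74. The difference was -0.57 (SE 0.20, 95% interval -1.06 to -0.09) and missed the threshold (adjusted p = 0.176, unadjusted p = 0.0264). Only with array weights did it pass (-0.71, adjusted p = 0.042).

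Of the 7 probe sets of Klf9, 6 were lower in the knockout and 4 had an unadjusted p under 0.05. They read 1 transcript on the same arrays and are not independent. The 5 above the filter lay between -0.85 and -0.49. The largest difference, in probe set 1436763_a_at, had no overlap between groups: 10.55, 10.16 and 9.91 in the controls against 9.01, 9.18 and 9.89 in the knockouts (-0.85, unadjusted p = 0.0181, adjusted p = 0.173 over 17473 probe sets). The exception, 1436952_at, lay below the filter at a difference of 0.23 and ran from 4.77 to 7.29 among the controls alone.

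**Figure D2:**
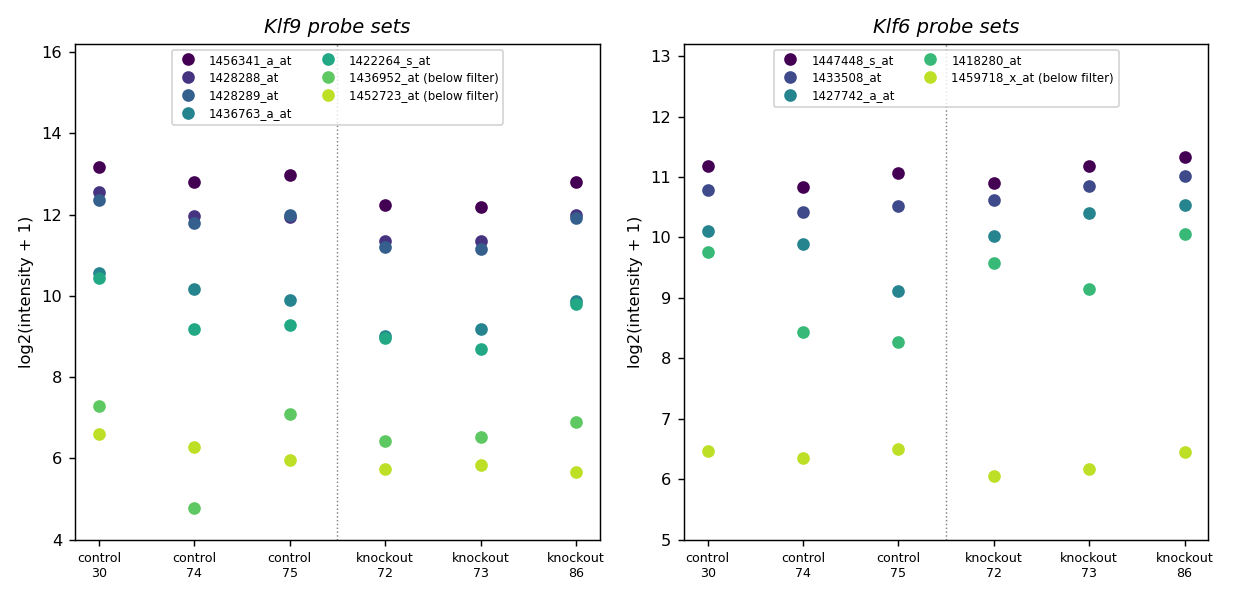
Level of every probe set of Klf9 (left) and Klf6 (right) on each of the 6 arrays as log2(intensity + 1), 1 colour per probe set. Klf9 probe sets above the filter are highest in control 30 and, among the knockouts, in knockout 86, while Klf6 probe set 1418280_at stands at 9.76 in control 30 against 8.43 and 8.28 in the other controls.

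The sequences before the starts of Klf15 and Klf9 are shown because these genes had the largest decreases. They are the 250 bases up to the start annotated by RefSeq, from assembly GRCm38.p6, 5′ to 3′ on the plus strand. Klf15 lies at chr6:90462326-90462575 and Klf9 at chr19:23140976-23141225. Capitals mark matches, on either strand, to CACCC, to the GC box GGGCGG and to the E-box CACGTG. The E-box was added after the sequences had been read.
Klf15: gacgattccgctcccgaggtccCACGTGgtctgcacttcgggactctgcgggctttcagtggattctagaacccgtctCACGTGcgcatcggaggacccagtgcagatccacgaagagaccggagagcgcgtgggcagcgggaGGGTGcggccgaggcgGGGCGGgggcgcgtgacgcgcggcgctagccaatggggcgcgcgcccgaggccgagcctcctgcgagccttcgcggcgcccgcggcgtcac
Klf9: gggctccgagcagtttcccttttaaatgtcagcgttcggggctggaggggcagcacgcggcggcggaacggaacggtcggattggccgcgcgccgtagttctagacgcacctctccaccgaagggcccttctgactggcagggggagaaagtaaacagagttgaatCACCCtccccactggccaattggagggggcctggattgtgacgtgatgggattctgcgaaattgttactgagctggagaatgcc
The Klf15 window held 2 matches to CACGTG, 1 to GGGCGG and 1 to CACCC. The Klf9 window held 1 match to CACCC and none to the other motifs. Over 32851 promoter windows of this length, 52.0% held CACCC, 32.7% held GGGCGG and 6.02% held CACGTG. The glucocorticoid receptor half-site AGAACA, present in 16.1% of windows, had no match before any of the 8 family genes that the table holds. The same was true of TATAAA (12.4% of windows), TGACGTCA (1.55%) and the CArG box (1.47%). These matches describe letters and do not show binding.

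The genes around Klf9 and Klf15 gave 1 call. Of 12 genes listed for the glucocorticoid response, 1 fell and none rose, with a median of -0.09. Among all genes tested 0.657% passed as lower and 1.76% as higher. At an unadjusted p under 0.05 there were 1 lower and 0 higher, against 11.5% and 9.86% of all genes. Groups did not overlap in 1 of the 12, against 28.1% of all genes. The gene that fell was Nr3c2, the mineralocorticoid receptor, at 7.72, 7.88 and 7.75 in the controls and 6.33, 6.33 and 5.91 in the knockouts (-1.59, SE 0.16, adjusted p = 0.0057). All 3 knockout values lie below the filter on dim signals, so the gene entered the test through its control arrays. It passed in each of the 14 other settings in which it was tested. The receptor gene Nr3c1 stood at 0.09 (adjusted p = 0.791). Direct glucocorticoid targets did not pass, and their values moved with single arrays. Tsc22d3 stood at -0.78 (adjusted p = 0.36) and ran from -1.24 without knockout 86 to -0.33 without knockout 72. Per1 stood at -0.63 (adjusted p = 0.338) and reached -0.25 without knockout 72. Knockout 86 stood apart for Fkbp5, at 10.24 against 8.62 and 8.27 in the other knockouts, and the difference of 0.80 (adjusted p = 0.411) was 0.20 without it. Mt2 stood at 0.75 (adjusted p = 0.336) and at 0.38 without knockout 86.

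All 7 metabolic genes tested that are linked to Klf15 had lower means in the knockout, from -1.20 to -0.24 with a median of -0.54, and 0 of 7 passed the limma threshold. At an unadjusted p under 0.05 there were 3 of 7, against 21.4% of all genes, and the same number had no overlap between groups, against 28.1%. Slc2a4, the insulin-responsive glucose transporter, stood at 10.46, 11.08 and 10.64 in the controls and 10.05, 9.51 and 9.01 in the knockouts (-1.20, SE 0.29, adjusted p = 0.087). The fatty acid oxidation enzymes Hadh (-0.76, adjusted p = 0.147) and Acadm (-0.54, adjusted p = 0.178) likewise had no overlap between groups, and the vasodilator peptide Adm stood at -0.73 (adjusted p = 0.321). Knockout 86 was the lowest array for Slc2a4, Hadh, Acadm and Adm, whereas it was the highest knockout array for Klf15.

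Markers of other cells are given beside these values, with the summed level of a list as log2 of its summed signal. White adipocyte markers were lower in 6 of 6 genes tested, and the summed level of the 6 on the array overlapped between groups, at 13.98 to 15.38 in control and 14.07 to 14.67 in knockout arteries. Smooth muscle markers were lower in 7 of 7 (summed level 15.61 to 15.97 against 15.43 to 15.67), and endothelial markers in 9 of 9 (14.35 to 14.56 against 13.91 to 14.35). The smallest differences on these lists were -0.03 for Acta2 and -0.0048 for Erg. The smooth muscle marker with the largest difference was Lmod1, an actin filament nucleator, at 11.59, 10.85 and 11.67 in the controls and 10.40, 10.03 and 10.09 in the knockouts (-1.20, 43.6% of control, adjusted p = 0.0568). The summed level of 3 Schwann cell and nerve markers on the array did not overlap, at 10.76 to 11.29 against 9.91 to 10.51, with S100b at -0.60 (adjusted p = 0.0747) and Sox10 at -0.86 (adjusted p = 0.145). Macrophage markers were higher in 6 of 6 tested, with Mrc1 at 1.42 (adjusted p = 0.0668) and Adgre1 at 1.88 (adjusted p = 0.127). Their summed level over 8 on the array was 10.84 to 12.00 against 12.26 to 14.31. Knockout 73 stood apart in that sum, at 14.31 against 12.77 and 12.26 in knockouts 72 and 86. Fibroblast markers were higher in 5 of 7 (14.22 to 14.84 against 14.72 to 14.95), and lymphatic endothelial markers, 3 of which were tested, overlapped (10.22 to 11.49 against 10.91 to 11.56). No marker of these lists passed the threshold. No marker of T cells, B cells, mesothelium or red cells passed the filter. Of the epithelial and acinar markers only Cela1 passed it, at -0.86 (adjusted p = 0.272), with a summed list level of 8.22 to 9.20 against 7.60 to 8.38. The part of any of these cell types in the Klf values was not tested.

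By the fixed rule of likeness, the genes whose levels most resembled Klf15 over the 6 arrays were the focal adhesion gene Zyx (r = 0.995), the calcium-permeable channel Trpv4 (r = 0.992), Amigo2 (r = 0.991), Adamtsl4 (r = 0.989) and Kctd14 (r = 0.988). Pearson's r here includes the difference between groups and is given as a description. Of these, Amigo2 fell by 1.41 (adjusted p = 0.0308), Trpv4 fell by 0.87 (adjusted p = 0.0413) and Adamtsl4 fell by 0.63 (adjusted p = 0.0479), while Zyx stood at -0.48 (adjusted p = 0.109) and Kctd14 at -0.37 (adjusted p = 0.155). Klf15 differed between groups, so genes chosen for likeness to it tend to differ as well, and these p-values add no support. These 5 genes were not retested with arrays left out.

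**Figure D3:**
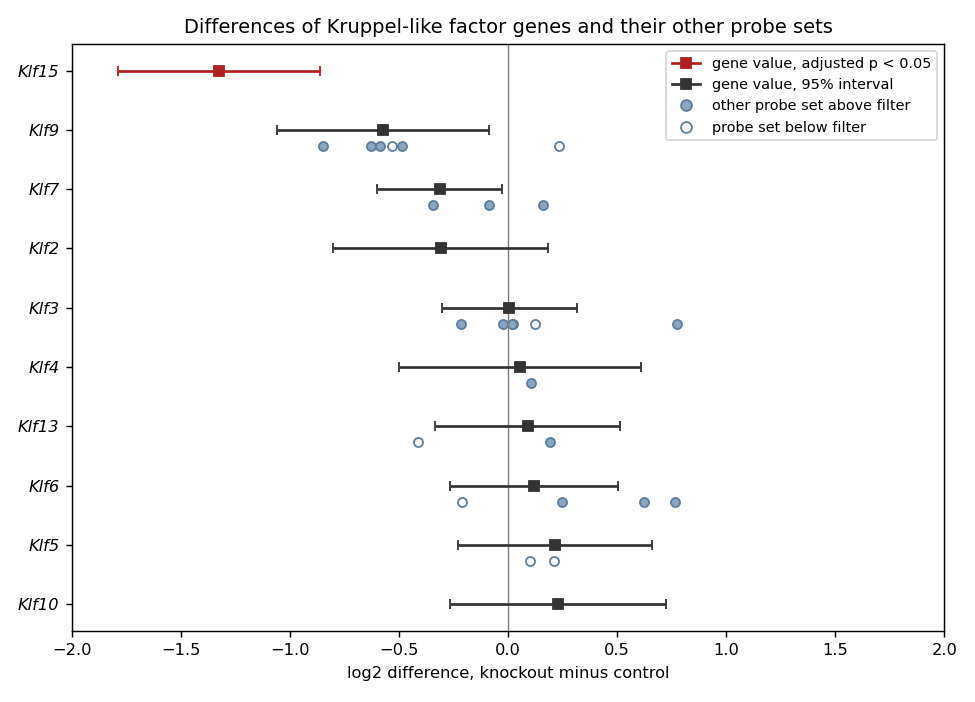
Difference in log2 level (knockout minus control) of each gene by its brightest probe set with the 95% interval (squares; red where the adjusted p is under 0.05), and of its other probe sets (circles; open where below the filter). The interval of Klf15 runs from -1.79 to -0.86, and those of Klf9 and Klf7 also lie below 0 without an adjusted p under 0.05.

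The vascular members Klf2, Klf4 and Klf5 did not pass the threshold. Klf2, which keeps endothelium quiescent, stood at 11.81, 11.46 and 11.32 in the controls and 10.92, 11.18 and 11.56 in the knockouts. The groups overlapped through knockout 86, and the difference was -0.31 (95% interval -0.80 to 0.18, adjusted p = 0.428). It was -0.16 without knockout 72, -0.17 without control 30 and -0.48 without knockout 86. Klf4, which silences contractile genes in injured smooth muscle, stood at 10.79, 11.12 and 10.43 against 10.60, 10.70 and 11.21. Its difference of 0.05 (95% interval -0.50 to 0.61, adjusted p = 0.917) turned to -0.12 without control 75, -0.13 without knockout 86 and -0.043 with median centring. The other Klf4 probe set, 1417395_at, stood at 0.11. Klf5, a driver of smooth muscle growth, was the dimmest member at 7.12, 7.73 and 7.49 against 7.49, 7.66 and 7.84 (0.22, 95% interval -0.23 to 0.66, adjusted p = 0.539). Without control 30 its difference was 0.054, and without control 74 it was 0.36. Its other 2 probe sets lay below the filter, at 0.10 and 0.21. For these 3 genes the intervals still allow a change of more than 0.6 on the log2 scale in 1 direction.

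For the upstream arm of Klf2 and Klf4, transcripts of 16 genes of the MEK5, ERK5, MEF2 and CCM pathway, or listed with it, were tested. Transcript levels do not measure the activity of kinases. The median of these 16 genes was 0.10, and 0 passed the limma threshold. At an unadjusted p under 0.05 there were 2, against 21.4% of all genes. Foxo1, a repressor of Klf2, was nearest at -0.57 (adjusted p = 0.062), with 11.14, 10.93 and 10.98 in the controls and 10.47, 10.46 and 10.43 in the knockouts. It passed with median centring, the trended prior or array weights (lowest adjusted p 0.0191). Mapk7, the gene of ERK5, stood at 0.33 (adjusted p = 0.158). The MEF2 element that this pathway acts on was found by its letters in 1 of 8 family promoter windows, that of Klf2, against 2.92% of all windows. The stretch shown, chr8:72318929-72318968 (GRCm38.p6, plus strand), holds the element in capitals, 118 to 109 bases before the start.
Klf2: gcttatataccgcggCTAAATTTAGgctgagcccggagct

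Of 11 endothelial genes controlled by Klf2 and Klf4, 0 passed the limma threshold and 4 had an unadjusted p under 0.05, against 21.4% of all genes, with a median of -0.08. Tek, the angiopoietin receptor, stood at -0.62 (adjusted p = 0.091), Nos3, the endothelial nitric oxide synthase, at -0.58 (adjusted p = 0.116) and the oxidoreductase Nqo1 at -0.66 (adjusted p = 0.139). The chemokine Ccl2 stood at 0.34 (adjusted p = 0.186). These 4 had no overlap between groups, against 28.1% of all genes. The anticoagulant receptor Thbd, a textbook Klf2 target, differed by -0.10 (adjusted p = 0.742). In the same arrays 9 of 9 endothelial markers had lower means, by unequal amounts. Pecam1 stood at -0.86 (limma adjusted p = 0.123) and Cldn5 at -0.71 (adjusted p = 0.127). Cdh5 stood at -0.21 (adjusted p = 0.44), Esam at -0.08 (adjusted p = 0.74) and Erg at -0.0048 (adjusted p = 0.99). The part of these markers in the endothelial values was not tested.

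Among 13 smooth muscle genes linked to Klf4 and Klf5, 0 passed the limma threshold, with a median of -0.06. At an unadjusted p under 0.05 there were 5, against 21.4% of all genes. Those higher were the cell cycle inhibitor Cdkn1a (1.21, adjusted p = 0.113) and the growth factor genes Pdgfa (0.74, adjusted p = 0.131) and Pdgfb (0.43, adjusted p = 0.18). Those lower were the contractile genes Myh11 (-0.46, adjusted p = 0.133) and Tagln (-0.33, adjusted p = 0.231). Cdkn1a alone of these passed in any other setting, with array weights (adjusted p = 0.0412).

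Klf6 and Klf10 did not pass either. Klf6, a factor of tissue injury, had its brightest probe set at 11.17, 10.83 and 11.06 in the controls and 10.90, 11.19 and 11.33 in the knockouts (0.12, 95% interval -0.27 to 0.50, adjusted p = 0.711). All 4 of its probe sets above the filter were higher in the knockout, from 0.12 to 0.77, and their mean gave 0.44 (adjusted p = 0.302). The probe set below the filter stood at -0.21. The one with the largest difference, 1418280_at, read 9.76 in control 30 against 8.43 and 8.28 in the other controls, and 9.57, 9.15 and 10.05 in the knockouts (unadjusted p = 0.118). Control 30 stood apart in the same way in Klf3 probe set 1431630_a_at, at 8.51 against 6.99 and 6.82, and in Klf9 probe set 1422264_s_at, at 10.44 against 9.19 and 9.28. Klf10, an early TGF-beta response gene, stood at 9.01, 9.50 and 9.45 against 9.48, 9.28 and 9.88 (0.23, 95% interval -0.27 to 0.72, adjusted p = 0.557). Its difference was 0.060 without knockout 86, 0.075 without control 30 and 0.36 without knockout 73.

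Of 11 genes listed with Klf10 around the early TGF-beta response, 3 rose and none fell, with a median of 0.41. Among all genes tested 1.76% passed as higher and 0.657% as lower. The list holds parts of the pathway, such as the ligand gene Tgfb1 and the receptor gene Tgfbr1, beside genes that respond to it. At an unadjusted p under 0.05 there were 5 higher and 0 lower, against 9.86% and 11.5% of all genes. Junb stood at 0.85 (adjusted p = 0.132). Tgfb1 rose by 1.23 (SE 0.16, adjusted p = 0.0183), its receptor Tgfbr1 by 1.02 (SE 0.18, adjusted p = 0.0413) and the corepressor Tgif1 by 1.22 (SE 0.22, adjusted p = 0.0417). Tgif1 stood at 6.76, 7.48 and 7.14 in the controls and 8.09, 8.37 and 8.58 in the knockouts. The inhibitor Smad7, which Klf10 represses, stood at 0.08 (adjusted p = 0.872). Tgfbr1 lost its call without any 1 array, and Tgfb1 and Tgif1 kept theirs in 1 of 6 such fits each, with adjusted p up to 0.0815 and 0.139. With the mean of its probe sets Tgfb1 stood at 0.72 (adjusted p = 0.0579). The count of 3 was 1 with no filter, by probe set or with median centring, 2 without control 74, and 0 without any other single array.

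Of 21 immediate early genes, which are switched on within minutes of a stimulus, 3 rose and none fell, with a median of 0.60. Among all genes tested 1.76% passed as higher and 0.657% as lower. At an unadjusted p under 0.05 there were 9 higher and 0 lower, against 9.86% and 11.5% of all genes. Egr2 rose by 3.53 (SE 0.28, adjusted p = 0.00296), Egr1 by 1.09 (SE 0.18, adjusted p = 0.0335) and Ier2 by 0.87 (SE 0.13, adjusted p = 0.0297). Their zinc finger relatives Klf4 and Klf6, which are often counted among such genes, stood at 0.05 and 0.12. Next by p-value came Ier5 at 0.77 (adjusted p = 0.0717) and Egr3 at 2.03 (adjusted p = 0.0748), both without overlap. Control 30 stood apart on this list, with a summed level of 15.29 against 14.41 in each of the other controls and 14.93 to 15.14 in the knockouts. Fos read 11.81 in control 30 against 9.20 and 9.75 in the other controls, and its difference of 0.77 (adjusted p = 0.504) was 1.54 without that array (adjusted p = 0.0378). Jun moved from -0.0066 to 0.54 (adjusted p = 0.174) and Atf3 from -0.63 to -0.0002 when control 30 was left out. Egr2 passed in all 15 other settings, whereas with 1 array left out Egr1 passed in 2 of 6 fits and Ier2 in 1 of 6. The count of 3 was 1 without control 75, knockout 72 or knockout 86 and 7 with array weights. Macrophage markers, given above, were higher in the same arrays, and their part in these lists was not tested.

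**Figure D4:**
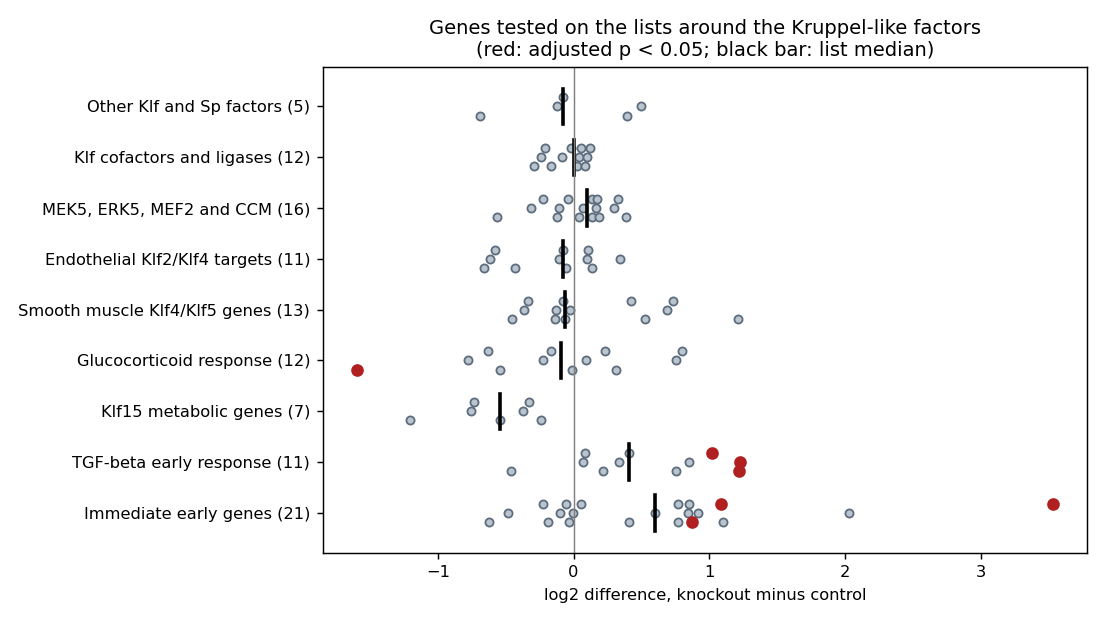
Difference in log2 level (knockout minus control) of each gene tested on the 9 lists around the family, 1 circle per gene, red where the adjusted p is under 0.05, with the list median as a black bar and the number tested in brackets. The 7 metabolic genes all lie below 0, and the red points are Nr3c2 below 0 and 6 genes of the TGF-beta and immediate early lists above 0.

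The remaining members are Klf3, a repressor that recruits CtBP, Klf7, a factor of neurons and adipocytes, and Klf13, a repressor that recruits Sin3a. Klf7 stood at 10.24, 10.17 and 10.24 in the controls and 9.83, 9.84 and 10.04 in the knockouts. The groups did not overlap, and the spread within them was small (SD 0.04 and 0.12, n = 3 each). The difference of -0.31 (SE 0.12, 95% interval -0.60 to -0.03) did not pass over all genes (adjusted p = 0.200). Its other 3 probe sets stood at -0.35, -0.09 and 0.16, and the mean of all 4 gave -0.15 (adjusted p = 0.733). Klf3 stood at 10.68, 10.52 and 10.45 in the controls and 10.46, 10.51 and 10.69 in the knockouts, a difference of 0.0056 (95% interval -0.30 to 0.31, adjusted p = 0.985). Klf13 stood at 10.67, 10.29 and 10.23 against 10.39, 10.33 and 10.74, a difference of 0.09 (95% interval -0.33 to 0.51, adjusted p = 0.803). The groups overlapped in both genes. The 6 probe sets of Klf3 above the filter ran from -0.22 to 0.77. Both of those of Klf13 were higher, at 0.09 and 0.19, and its dim probe set below the filter stood at -0.41. The direction of Klf3 turned with median centring, array weights and 3 of the fits without 1 array, and that of Klf13 turned without knockout 86 (-0.037). Klf6, described above, turned to -0.070 with array weights. Of 12 corepressors, coactivators and ubiquitin ligases that act on Klf proteins, 0 passed the limma threshold. At an unadjusted p under 0.05 there were 0, against 21.4% of all genes. The differences of these 12 ran from -0.29 (the acetyltransferase Kat2b, adjusted p = 0.291) to 0.12 (the deacetylase Hdac2, adjusted p = 0.623).

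Of 13 other Klf and Sp genes on the array, 5 passed the filter and 0 passed the limma threshold. At an unadjusted p under 0.05 there were 2 of these 5, against 21.4% of all genes. Klf11, the closest relative of Klf10, averaged 9.33 ± 0.16 (SD, n = 3) in the controls and 8.64 ± 0.44 (SD, n = 3) in the knockouts (-0.69, SE 0.23, adjusted p = 0.157). Klf16 stood at 7.98, 7.92 and 7.98 against 8.48, 8.23 and 8.66 (0.50, SE 0.14, adjusted p = 0.126). Groups did not overlap in 3 of the 5 genes, Klf11, Klf16 and Sp1, against 28.1% of all genes. Klf11 and Klf16 passed with array weights (limma adjusted p = 0.038 and 0.0399). In that setting 1131 genes passed, against 258 in the main analysis. The ubiquitous factors Sp1 and Sp3 stood at -0.13 and -0.08 (adjusted p = 0.544 and 0.897).

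One array recurred across the family. Knockout 86, whose label carries the letter F where the other 5 carry M, was the highest of the 3 knockout arrays in 10 of 10 members, against 34.9% of all genes tested. Control 30 was the highest control array in 7 of 10, against 28.1% of genes. Levels of the 10 genes on 1 array are not independent, and no test was made of this. Without knockout 86 the differences were -0.78 for Klf9 (adjusted p = 0.13), -0.38 for Klf7 (adjusted p = 0.294) and -0.48 for Klf2 (adjusted p = 0.35). Klf9 stood at -0.46 without knockout 73 and Klf7 at -0.28 without knockout 72, the smallest differences with 1 array left out.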

How the data were processed

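After adipose and lymph tissue had been cleared from the vessels, biotin-labelled total RNA was read on 1 Affymetrix array per mouse, per the labels' protocols. The authors deposited 1 linear intensity per probe set. The sources used here do not give how probes were summarised and arrays scaled. On each array 589 to 680 values equal 1, and 3 arrays per group limit the precision.

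Intensities were taken as log2(intensity + 1) and quantile normalized, and the log2 values were computed from the deposited intensities. Gene names come from the platform annotation, in which 34945 of 45037 probe sets have 1 symbol. Those under the median mean of 6.50 were left out, which kept 27 of 34 family probe sets. Each gene was read by its brightest probe set, and all 10 family genes were tested. Groups were compared with limma 3.58.1 in R 4.3.3 (lmFit, eBayes, 2-sided), with Benjamini-Hochberg adjustment over 10654 genes, or over 17473 probe sets where stated. For probe sets below the filter, p-values came from the fit with no filter. In 10 simulated data sets of 10654 genes, the test recovered 50.8% of the genes given a log2 change of 1 and 91.7% of those given 2. On average 5.36% of the simulated calls were false. The simulated noise was independent between genes and arrays, with variances from limma's fitted prior. It held no shifts shared by the genes of 1 array, so these shares may not hold for the real arrays.

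The members and the gene lists were chosen with earlier results of these data known, so a list's count is no independent support. Named genes are all members, Itgb1, Tagln, on each pathway list the genes past the threshold and up to 4 with the smallest p, on marker lists whose summed level does not overlap up to 2, and the 5 genes most like Klf15. Thbd, Nr3c1, Fkbp5, Smad7, Egr3, Fos, Atf3, Jun, Hdac2, Sp1, Sp3, Sp6, Acta2, Lmod1, Pecam1, Cldn5, Cela1 and the genes below the filter were named after their values were seen. So were the endothelial markers Cdh5, Esam and Erg. Promoter sequences come from RefSeq (GRCm38.p6), whose table holds 8 of 10 members. Separate animals were sampled, and the labels give no litter or batch. Alternatives covered the filter, the probe set rule, normalization, a pseudocount of 16, the variance prior, array weights, the threshold and leaving out each array.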

Additional observations from a re-analysis of the deposited data

How the results depend on the processing

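The count of members past the threshold was 1 in the main analysis and 1 with the mean of probe sets, a stricter filter (70th percentile), the test by probe set, median centring, no normalization, a pseudocount of 16, the trended prior or either other threshold. It was 0 with no filter and 2 with array weights, which added Klf9, and 0 to 1 with 1 array left out. With no filter more genes were tested; the cause of the other shifts was not tested. Over all genes 258 passed, 141 with the stricter filter, 1131 with array weights, 656 at an adjusted p under 0.10 and 45 to 240 with 1 array left out. The share of calls that were higher in the knockout was 72.9%, but 61.3% with median centring, 48.4% with array weights, 57.6% at the looser threshold, 90.2% with no filter and 61.2% to 91.9% with 1 array left out. The genes of the lists past the threshold numbered 7, against 16 with array weights, 12 at the looser threshold and 2 to 5 without 1 array.

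Klf15 stayed between -1.50 and -1.18 in all 15 alternatives. Klf3 turned to -0.071 with median centring and -0.025 with array weights, and ran from -0.064 to 0.070 without 1 array. Klf4 turned to -0.043 with median centring and ran from -0.13 to 0.22 without 1 array. Klf6 turned to -0.070 with array weights. Klf13 ran from -0.037 to 0.23 without 1 array. No paired analysis was possible because the labels give no litter, batch or other pairing of the animals.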

Other observations

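Of the listed genes below the filter, which entered only the fit with no filter, the immediate early genes Fosb and Fosl1 stood at 3.87 and 4.16 (limma adjusted p = 0.0251 and 0.0315 in that fit), with control means of 4.05 and 3.33. The adhesion gene Sele (1.12, adjusted p = 0.0437) and the protease gene Adamts4 (1.73, adjusted p = 0.0437), both on the list of endothelial genes controlled by Klf2 and Klf4, had control means of 4.53 and 5.38. These levels are dim, and the size of such differences depends on the pseudocount. By their brightest probe set, the other listed genes below the filter had adjusted p-values of 0.151 or more in that fit. A dimmer probe set of Sp6, a relative of the Klf factors, read 1.28, 1.33 and 1.75 in the controls and 4.70, 4.40 and 3.96 in the knockouts (2.90, adjusted p = 0.014 over all probe sets with no filter), while the brightest probe set of that gene differed by -0.05.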
